A study of Mus musculus with 2 samples.

Results

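Gimap1os is a long non-coding RNA (lncRNA) gene of the mouse that lies opposite Gimap1, one of the Gimap genes clustered on chromosome 6. It was examined together with every deposited transcript of a 300 kb window of that chromosome around the Gimap cluster, from Lrrc61 to the Tmem176 genes (mouse genome build GRCm38). The transcripts found lie between 48557236 and 48798826. The window held 11 of the 32012 transcripts deposited, 2 of them annotated to Gimap1os, 4 to other lncRNA genes and 5 assembled by the authors without a matching annotation. Gimap1os was picked because its deposited ratio was high, and the window because it surrounds that gene, so the Gimap1os values are a description and carry no test. The study compared the spleens of mice given collagen-induced arthritis (CIA), a joint disease that follows immunization against type II collagen, with those of healthy mice that were not treated. There was 1 library per group, so nothing below has a replicate check, and each difference is between 2 libraries, not between the conditions. Both sample titles give day 40, while another label of the CIA mice puts sacrifice at 42 days after the first immunization. The sources used here do not give strain, sex, age or the number of mice behind each library.

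Gimap proteins are GTPases of the immunity-associated protein family, found mainly in lymphocytes, where they bear on cell survival. Loss of Gimap5 in mice and rats depletes T cells, and loss of Gimap1 in mice depletes mature T and B cells. An antisense lncRNA such as Gimap1os is read from the strand opposite a coding gene and can share sequence with that gene's exons in the reverse orientation.

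GENCODE gives Gimap1os a pair of transcripts on the minus strand, and both were in the deposited table. ENSMUST00000155906 (chromosome 6, 48738346 to 48740621) has 2 exons and 1722 bases, and its intron of 554 bases runs from 48739895 to 48740448. ENSMUST00000205172 (48739501 to 48741444) has 1 exon of 1944 bases and keeps that intron, and GENCODE types it as a retained intron. They share 567 exonic bases, which is 32.9% of the 2-exon and 29.2% of the 1-exon transcript, so reads from there had to be divided between them by the authors' assembler. Outside these, 1155 bases belong to the 2-exon form only and 1377, the intron included, to the 1-exon form only. The forms thus also differ at their ends, and their levels do not measure splicing alone. The first sequence below is the splice junction, which only the 2-exon form has, with 20 bases from each exon. Capitals mark the last 4 bases of the first exon and the first 4 of the second. The next sequences are the same places in the transcript that keeps the intron, with the first and the last 2 bases of the intron in capitals. All were taken from GENCODE M21 transcripts and are written 5′ to 3′ on the minus strand.
Junction of ENSMUST00000155906, chr6:48740449-48740468 joined to chr6:48739875-48739894: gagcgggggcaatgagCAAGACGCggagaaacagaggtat
Intron start in ENSMUST00000205172, chr6:48740429-48740468: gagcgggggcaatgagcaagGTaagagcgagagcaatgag
Intron end in ENSMUST00000205172, chr6:48739875-48739914: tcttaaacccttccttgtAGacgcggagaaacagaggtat

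Both transcripts lie across parts of Gimap1 (48739054 to 48743795, plus strand). The 2-exon transcript covers 103 bases of exons of Gimap1 coding transcripts, at their first exon, and the 1-exon transcript covers 98 bases, at the exon that holds the Gimap1 start codon. Counting also the Gimap1 transcripts that retain introns, the overlap is 841 and 660 bases. No strand setting is stated for these libraries, so reads of Gimap1os, of Gimap1 and of its unspliced precursor could not be told apart at these bases, and how much each contributed was not tested. The first sequence below is the stretch of ENSMUST00000205172 opposite the 43 coding bases of that Gimap1 exon. In it the reverse complement of the start codon is in capitals. The second is the 250 bases before the RefSeq start of Gimap1 (RefSeq, GRCm38.p6), shown because bases 1022 to 1271 of the 2-exon Gimap1os transcript are its reverse complement. Its capitals mark the letters AGGAAG and ACCACA.
Antisense to the Gimap1 start, minus strand, chr6:48741375-48741417: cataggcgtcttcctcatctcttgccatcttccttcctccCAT
Before the start of Gimap1, plus strand, chr6:48738797-48739046: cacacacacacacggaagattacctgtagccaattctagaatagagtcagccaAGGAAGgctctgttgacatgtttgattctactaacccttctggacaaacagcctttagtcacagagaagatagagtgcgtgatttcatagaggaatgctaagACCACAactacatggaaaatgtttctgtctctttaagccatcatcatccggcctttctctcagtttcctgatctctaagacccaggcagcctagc

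AGGAAG holds the core letters bound by ETS factors, and ACCACA is the reverse complement of TGTGGT, the core letters bound by RUNX factors. Both are transcription factor families active in lymphocytes. The letters were searched on both strands in 1 window per gene, of 250 bases before and 50 bases after its start. AGGAAG or its reverse complement was in 6 of the 8 Gimap genes (Gimap1, Gimap3, Gimap4, Gimap5, Gimap7 and Gimap9) and in 35.1% of 27025 genes. TGTGGT or its reverse complement was in 3 of the 8 (Gimap1, Gimap4 and Gimap7) and in 16.9% of all genes. On neither strand did the Gimap1 window hold the letters CTTTGA of TCF/LEF factors, which were in 2 of the 8 Gimap windows and in 16.2% of all genes. Nor did it hold the letters GTAAACA of FOXO factors, found in 1 of the 8 and in 3.55% of all genes. The TATA box letters TATAAA were likewise in 1 of the 8, Gimap6, and in 14.2% of all genes.

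**Figure D1:**
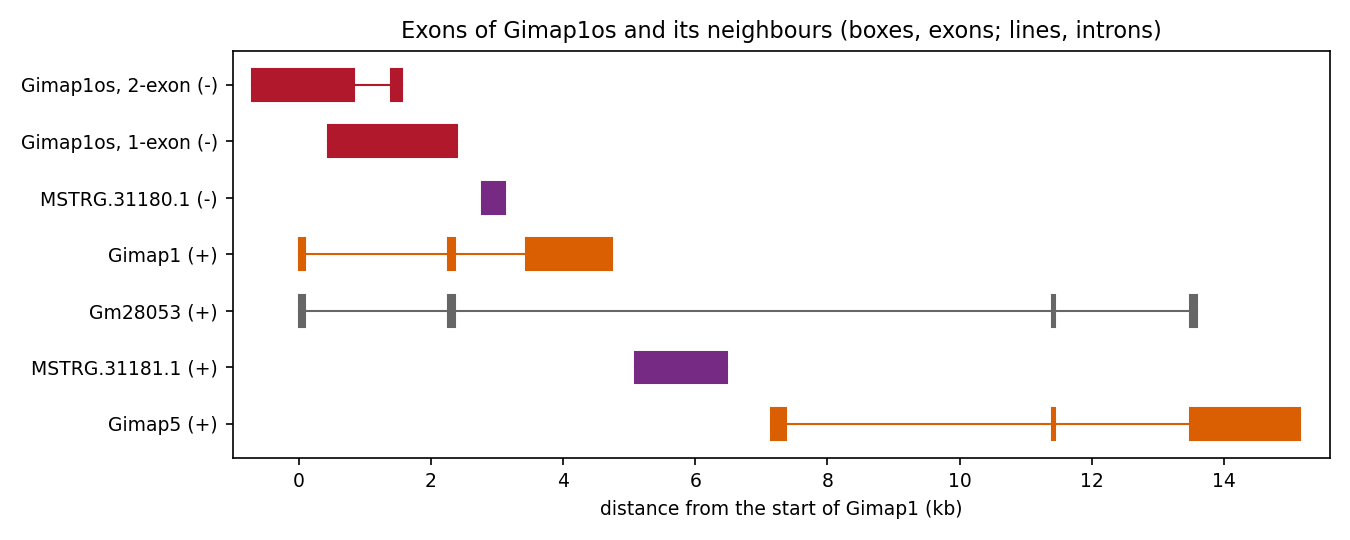
Exons (boxes) and introns (lines) of the 2 Gimap1os transcripts, their assembled neighbours and 1 transcript each of Gimap1, Gm28053 and Gimap5, by distance in kb from the start of Gimap1, with the strand beside each name. The 2-exon form of Gimap1os spans the first exon of Gimap1, and the 1-exon form spans the next one.

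In the CIA library the 2 forms of Gimap1os stood at nearly the same level, and in the healthy library only the 1-exon form was above 0. Levels are FPKM, fragments per kilobase of transcript and 1000000 fragments, and the deposited value of 0.0001 stands for 0. The 2-exon transcript had 6.82 FPKM in the CIA library and was listed at 0 in the healthy one, so it has no ratio. The 1-exon transcript had 6.61 FPKM with CIA and 1.80 FPKM in health. The 2-exon form thus made up 50.8% of the Gimap1os FPKM in the CIA library and the 1-exon form 49.2%. In the authors' deposited table the 1-exon transcript had a p of 0.0105 and a q of 0.185, and the 2-exon transcript a p of 1.

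For the ratios, 0.1 FPKM was added to both values, which understates the ratio of low transcripts. On this scale the 1-exon transcript was 3.53-fold higher in the CIA library, a log2 ratio of 1.82. Summed over both transcripts, Gimap1os stood at 13.4 against 1.80 FPKM, 7.12-fold or a log2 ratio of 2.83. A sum of FPKM depends on how fragments are divided between transcripts of different length. Multiplying each value by its length in kb before adding gave 24.6 against 3.50 fragments per 1000000, 7.02-fold. Both sums thus gave about the same ratio, and the 1-exon form taken alone gave a smaller one.

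Few annotated transcripts were as high as spliced Gimap1os in one library and listed at 0 in the other. The CIA library held 360 annotated transcripts at 5 FPKM or more. Of these 1 was listed at 0 in the healthy library, and that was ENSMUST00000155906. In the reverse direction 3 of 276 such transcripts were listed at 0 in the CIA library. At a lower limit of 1 FPKM the counts were 20 of 1878 and 17 of 1630. Among assembled transcripts at 5 FPKM or more, 23 of 2354 in the CIA library and 23 of 1652 in the healthy library were listed at 0 in the other. The limits were chosen after the values were seen, and Gimap1os was picked for its high deposited ratio, so its place in these counts carries no test. Neither Gimap1os transcript matched a GENCODE transcript outside the window at 90% identity over 100 bases or more. Matches inside the window, or outside GENCODE transcripts, were not covered, so whether a copy there lent reads was not tested.

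**Figure D2:**
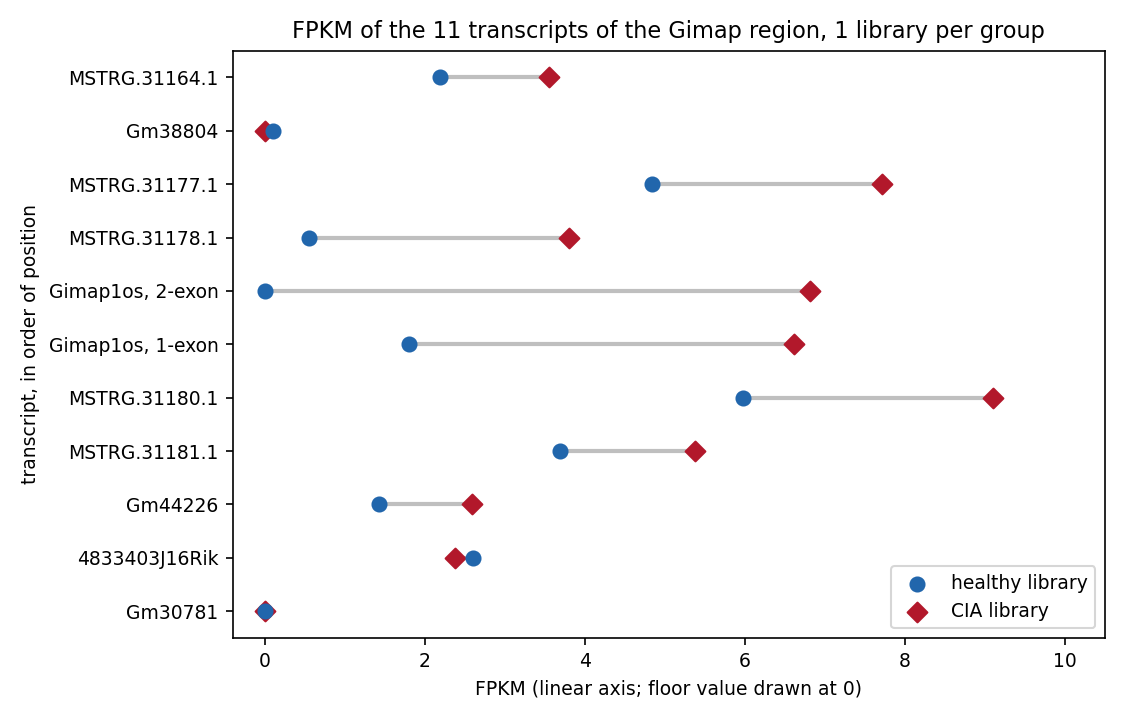
FPKM of the 11 transcripts of the window in the healthy (circles) and CIA (diamonds) library, on a linear axis, in order of position from top to bottom, with the floor value drawn at 0. The 2-exon Gimap1os transcript goes from 0 to 6.82 FPKM, and MSTRG.31180.1 has the highest level in both libraries.

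Among the annotated lncRNA genes, Gimap1os stood higher in the order of levels in the CIA library than in the healthy one. Of 2765 genes that reached 0.5 FPKM in either library it was number 57 by level in the CIA library, number 984 in the healthy library and number 40 by ratio. The median log2 ratio of these genes was 0.30, and 14.0% were 2-fold higher or more in the CIA library. The genes whose pair of levels was nearest to that of Gimap1os, by distance over log2(FPKM + 0.1) in the 2 libraries, were Gm43541, Carmn, Gpr137b-ps, Gm16534 and Gm45153. Gm43541, the gene of the transcript named in the series title, stood at 12.3 against 1.39 FPKM, at a distance of 0.38. Carmn, a lncRNA known from smooth muscle, stood at 8.34 against 1.97 FPKM, and the pseudogene Gpr137b-ps at 7.22 against 1.5 FPKM, at distances of 0.69 and 0.92. Gm16534 stood at 7.11 against 2.15 FPKM and Gm45153 at 6.67 against 2.42 FPKM, at distances of 0.94 and 1.08. With 2 libraries this is likeness of level and ratio only.

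Gimap1os was also set beside the other lncRNA genes named for lying opposite a coding gene, whose symbols end in os. Of 92 such genes past the filter it had the second highest ratio, after Dhrs13os, which stood at 2.66 against 0.272 FPKM. Of the 92 genes, 12 were 2-fold higher in the CIA library, which is 13.0% against 14.0% of all annotated genes, and 5 were 2-fold lower, against 4.20% of all annotated genes. Their median was 0.36. Gimap1os stood at 2.83 and the next gene, Lrrc75aos2, at 1.31.

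**Figure D3:**
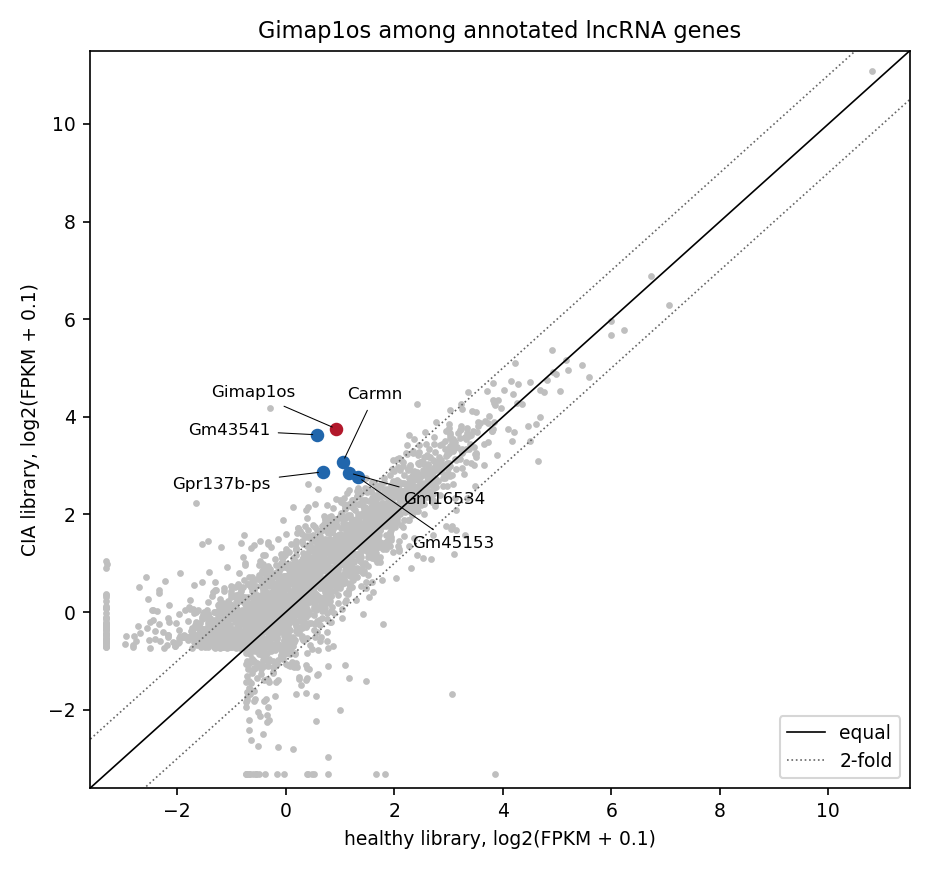
Level of each of the 2765 annotated lncRNA genes in the healthy (x) and CIA (y) library as log2(FPKM + 0.1). Gimap1os (red) and the 5 genes of nearest levels (blue) lie above the upper dotted line of 2-fold, and the points on the left and lower edges are genes listed at 0 in 1 library.

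The coding part of the window holds 18 protein-coding genes, 8 of them Gimap genes. Non-coding transcripts were listed at only 2 of the 8. Gimap1 had 3 and Gimap7, a GTPase of the same family, had 1, while Gimap3, Gimap4, Gimap5, Gimap6, Gimap8 and Gimap9 had none within their bodies. The mRNA levels of the Gimap genes themselves were not analysed here. Of the 11 transcripts, 9 reached 0.5 FPKM in either library. Of these, 3 were 2-fold higher or more in the CIA library, the 2 Gimap1os forms and the assembled MSTRG.31178.1, and none was 2-fold lower. Over all 19841 transcripts past that filter, 17.0% were 2-fold higher and 10.3% lower. The median log2 ratio was 0.68 over the 9 and 0.26 over all transcripts. Of the 9, 8 were above 0, as were 12710 of all 19841. Without Gimap1os, which set the choice of the window, 1 of 7 was 2-fold higher, or 14.3%, which is near the share of all transcripts. The median of these 7 was 0.66, and 6 were above 0.

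The 2 assembled transcripts nearest Gimap1os, both between it and Gimap5, had smaller ratios than it did. MSTRG.31180.1 (48741820 to 48742179, minus strand) lies 376 bases upstream of the start of the 1-exon Gimap1os transcript, on the same strand and inside an intron of Gimap1. It stood at 9.10 FPKM with CIA against 5.97 FPKM in the healthy library, the highest level of the window in both, and 1.51-fold apart. MSTRG.31181.1 (48744143 to 48745538, plus strand) lies 348 bases past the end of Gimap1 and 659 bases before the start of Gimap5, the lymphocyte survival GTPase. It stood at 5.38 against 3.69 FPKM, 1.45-fold higher in the CIA library. Both transcripts lie on the Gimap5 side of Gimap1os, and both were higher in the CIA library by less than 2-fold.

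Around Gimap7 one transcript resembled these neighbours and one did not. MSTRG.31177.1 (48720794 to 48722660, plus strand), in the intron of Gimap7 between its first and its coding exon, stood at 7.72 against 4.84 FPKM, 1.58-fold higher in the CIA library. MSTRG.31178.1 (48726026 to 48726341, plus strand), 1390 bases past the end of Gimap7, stood at 3.80 against 0.549 FPKM, 6.01-fold higher. MSTRG.31178.1 is 316 bases long, the shortest of the 9 transcripts past the filter, and the authors' deposited table gave it a p of 1 beside a ratio of 6.92. Both lie in introns of Gm28053, a protein-coding gene model of GENCODE that reaches from the first exon of Gimap7 to Gimap5 and includes exons of Gimap1 and Gimap5. Of 11696 assembled transcripts of 1 exon inside introns, 19.1% carried a strand, as these did, and 55.4% of those with a named host gene lay on the strand of that gene, so their strands do not show which gene they came from.

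Past Gimap5 lies a pair of lncRNA genes that overlap head to head, and their values went in different directions. Gm44226 (48754230 to 48755986, minus strand, 2 exons) ends 20 bases past the end of Gimap5 and stood at 2.59 against 1.43 FPKM, 1.76-fold higher in the CIA library. 4833403J16Rik (48755338 to 48756368, plus strand, 1 exon) stood at 2.38 FPKM with CIA against 2.60 FPKM in health, a log2 ratio of -0.12, the only negative one among the 9. The exons of the pair share 649 bases, and without strand their reads could not be told apart there. Within those bases a stretch of 209 also matches Olfr432, an olfactory receptor gene elsewhere, at 91.9% identity. At the far end of the window MSTRG.31164.1 (48557236 to 48559702), inside an intron of Lrrc61 and with no strand, stood at 3.55 against 2.18 FPKM, 1.60-fold higher in the CIA library. The remaining members were low, as Gm38804, opposite Zfp775, was listed at 0 with CIA and at 0.10 FPKM in the healthy library, and Gm30781 was listed at 0 in both.

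**Figure D4:**
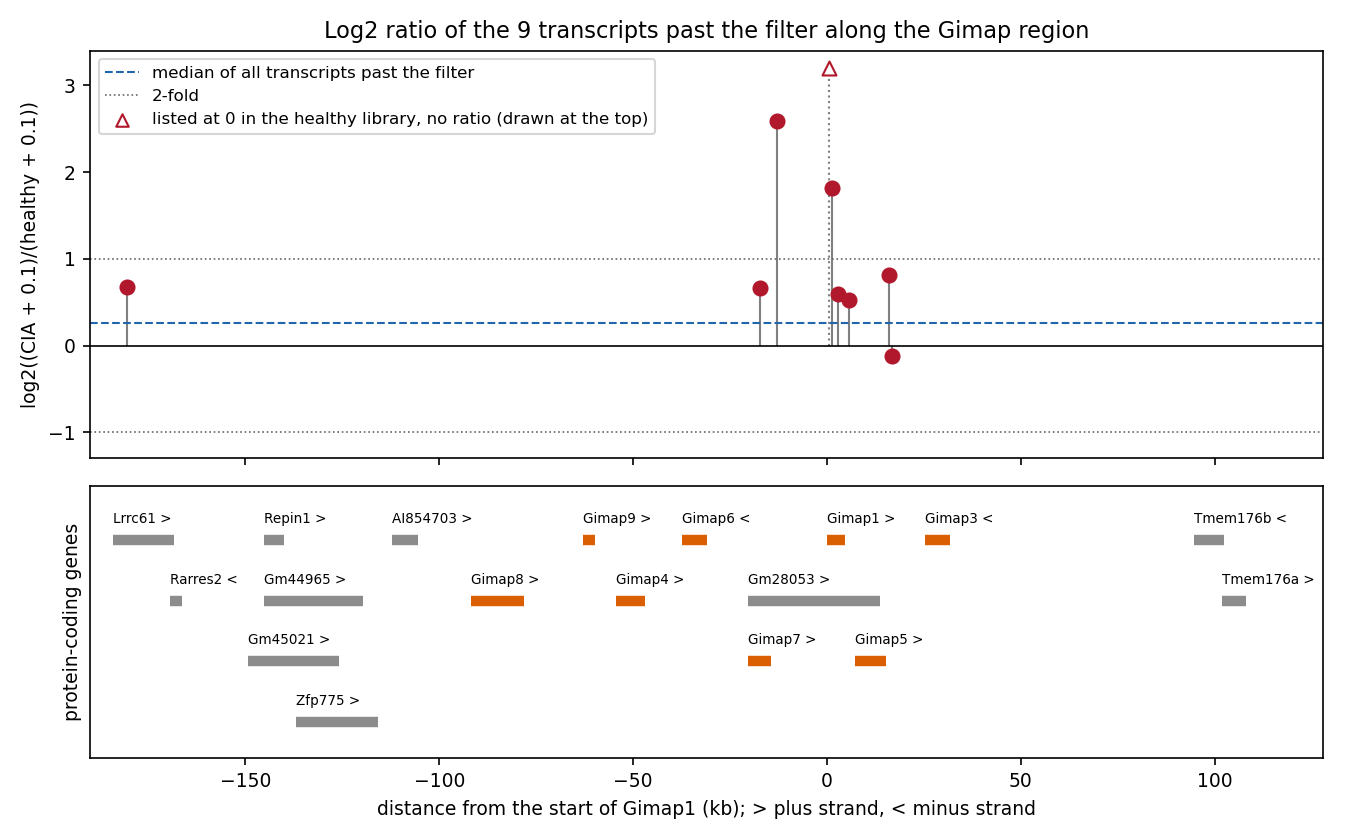
Upper panel, log2 ratio of the 9 transcripts past the filter by distance in kb from the start of Gimap1, and lower panel, the protein-coding genes with Gimap genes in orange. The spliced Gimap1os transcript, listed at 0 in the healthy library, is drawn as an open triangle at the top with no ratio, and 8 of the 9 points lie at or beside Gimap7, Gimap1 and Gimap5.

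Just outside the window the levels were mixed. On the side before it, MSTRG.31160.1 in an intron of Zfp862-ps had 6.29 against 9.22 FPKM and a log2 ratio of -0.55, and was the only one of 3 transcripts within 300 kb to pass the filter. On the other side 4 of 8 passed, in introns of Malsu1 and Igf2bp3, with a median of 0.46. None reached 2-fold once 0.1 FPKM was added. The highest, MSTRG.31192.1 at Igf2bp3, fell just short, at 1.82 against 0.861 FPKM and a log2 ratio that rounds to 1.0. Gm44764, whose longer transcript crosses the end of the window, was listed at 0 in both libraries.

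Because Gimap genes are lymphocyte genes, the non-coding transcripts lying across other genes of spleen cell types were set beside them. In bulk RNA, fewer cells of a type and less RNA per cell cannot be told apart. Of 62 transcripts past the filter at T cell genes, 45 or 72.6% were 2-fold higher or more in the CIA library, against 17.0% of all transcripts, none was lower, and the median log2 ratio was 1.33. Their summed level was 228 FPKM with CIA against 107 FPKM in the healthy library, and they covered 8 of the 21 listed genes, with 13 of the list, Cd4 and Cd8a among them, without such a transcript. At B cell genes 8 of 30 or 26.7% were higher and 2 lower, with a median of 0.69, a summed level of 344 against 216 FPKM, and 4 of 11 genes covered. At lymphocyte survival genes 3 of 17 or 17.6% were higher, near the 17.0% of all transcripts, and 0 lower. Their median was 0.78 and their summed level was 114 against 65.0 FPKM. The Gimap window, at a median of 0.68 or 0.66 without Gimap1os, lay near the B cell and survival lists and below the T cell list. The window also holds transcripts outside Gimap genes, while the lists hold only transcripts lying across gene bodies. The 4 transcripts across Gimap gene bodies had a median of 1.24, and the 2 left without Gimap1os had 0.63. The summed level of the window was 47.9 against 23.1 FPKM, and 34.5 against 21.3 FPKM without Gimap1os, which was picked for its high ratio.

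Erythroid and myeloid genes were the other lists compared, the second with only 3 transcripts. At erythroid genes none of 12 transcripts was 2-fold apart, the median was -0.32 and the summed level was 111 against 140 FPKM. At myeloid genes 2 of 3 transcripts were listed at 0 in the CIA library, MSTRG.4579.1 over Lyz2, at 5.04 FPKM in the healthy library, and Gm11505 over Mpo, at 1.62 FPKM, and the third, at Spi1, was within 2-fold. The myeloid median was -4.11 over these 3 and 0.01 over the 14 transcripts within 50 kb of the gene bodies, so its direction did not hold. The part of these lists in the Gimap1os values was not tested. Within the T cell list, the largest differences of transcripts with at least 1 FPKM were at Themis, a regulator of thymocyte selection, where MSTRG.3245.1 stood at 2.47 against 0.430 FPKM, and at Lef1, a factor of naive T cells, where Gm42449 stood at 4.38 against 0.996 FPKM. The 1-exon Gimap1os transcript, at a log2 ratio of 1.82, lay within the range of single transcripts of the T cell list, from -0.35 to 2.43. The sum of both Gimap1os transcripts gave 2.83. That sum includes the form listed at 0 in the healthy library, so it is not a like measure to this range. Gimap1os was also picked for its high ratio, so its place beside the list carries no test.

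**Figure D5:**
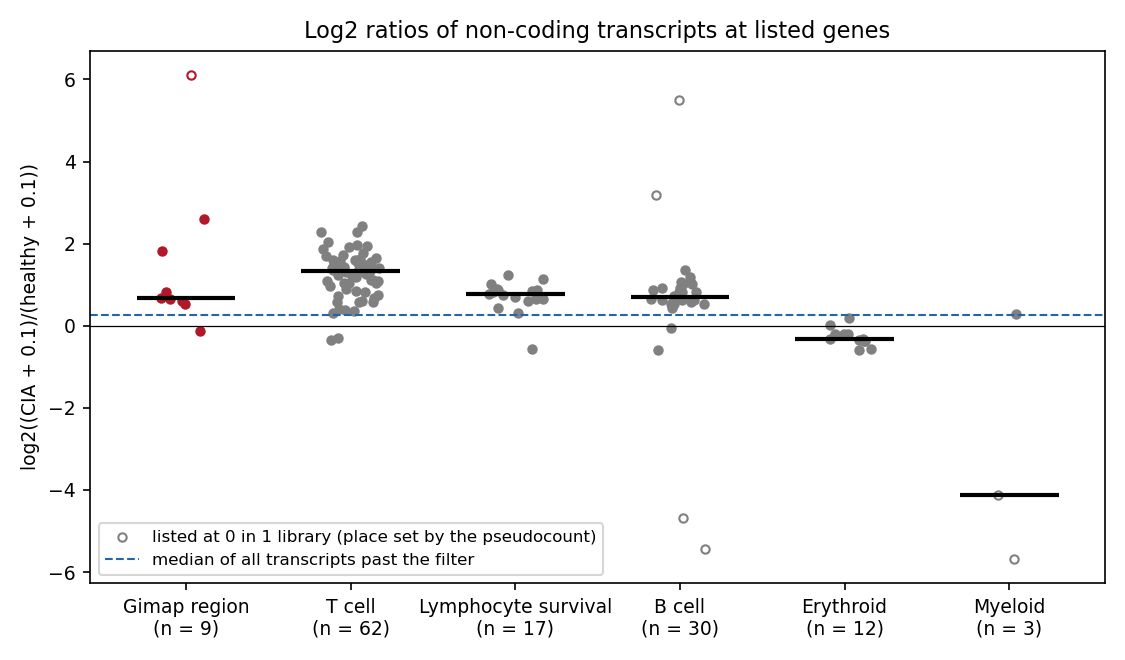
Log2 ratio of each transcript past the filter in the Gimap window (red) and lying across genes of 5 lists (grey), with the median of each as a black line and the number of transcripts under each name. Open circles are transcripts listed at 0 in 1 library, whose place is set by the added 0.1 FPKM, and the T cell list has the highest median, 1.33.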

How the data were processed

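Total RNA of spleen was extracted with TRIzol and depleted of ribosomal RNA with Ribo-Zero, per the labels' protocols. StringTie, a transcript assembler, is named in the submitters' processing notes. The sources used here do not give the aligner, the strand setting or the genome build. FPKM per transcript was deposited by the authors in a table of annotated and a table of assembled transcripts, per the file headers. The deposited ratio (fold) of all 32012 transcripts was that of the CIA to the healthy FPKM, to a relative difference of at most 0.0001. The log2 column is of that ratio, and the p-values and q-values are the authors' own, with a test that is not given, per the file headers. In 2 damaged cells of other genes the value was assigned by the deposited ratio. All 15172 annotated transcripts had GENCODE M21 coordinates, so GRCm38 is given.

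FPKM keeps no counts, so the depth is unknown and no counting interval can be given. Deposited FPKM summed to 10246 (CIA) and 8718 (healthy) over annotated and to 71966 and 88976 over assembled transcripts. Transcripts that reached 0.5 FPKM in either library were described by log2((CIA + 0.1)/(healthy + 0.1)) and a 2-fold size rule. A transcript belonged to a list gene when its span overlapped the gene's GENCODE body on either strand. The members, lists and the rule for named genes were chosen with earlier results of these data known. That rule names all transcripts of the window, the 5 genes of nearest levels and the 2 transcripts per list of largest ratio with at least 1 FPKM. Dhrs13os, Lrrc75aos2 and the transcripts outside the window were named after their values were seen. Python 3.11.15, numpy 2.4.6, pandas 2.3.3, matplotlib 3.10.9 and blastn 2.17.0 were used. Pseudocounts, filters, centring, tables and windows were varied.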

Additional observations from a re-analysis of the deposited data

How the results depend on the processing

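No paired analysis was possible because there was 1 library per group, and no library could be left out. With no replicates, a log2 value counted as moved when the ratio behind it changed by a factor of 1.5 or more. The Gimap1os log2 ratio of 2.83 lay between 2.36 and 2.89 under both other pseudocounts, centring on the annotated median (0.30) and the length-weighted sum, and was 1.82 for the 1-exon transcript alone. The length-weighted sum, the 1-exon transcript alone and the added Gm28053 body were settings chosen after seeing the data. No assembled transcript carried the name Gimap1os, so the locus sum equalled the gene sum. The median of the window was 1.32 over its 4 annotated transcripts only, fewer by construction, and between 0.38 and 0.70 otherwise. The median of 1.24 at Gimap gene bodies rested on Gimap1os. It was 3.97 over annotated transcripts only, which are the 2 Gimap1os forms, and 0.63 without Gimap1os, with assembled transcripts only or without overlap with coding exons, which leave the same 2 transcripts. In the same 3 settings the count of 2-fold higher transcripts of the window was 1 in place of 3, and with no filter 1 transcript, Gm38804, was lower. The myeloid median of -4.11 is the value of Gm11505, listed at 0 in the CIA library. It was -7.35 with a pseudocount of 0.01 FPKM, -1.39 with 1 FPKM and 0.01 over transcripts within 50 kb of the gene bodies, where 14 in place of 3 entered. Values near or at the floor rest on an unknown number of fragments.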

Other observations

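Within the lists, the ratios differed between genes that are all known from T cells. The median log2 ratio was 1.51 over 15 transcripts across Lef1, 1.43 over 14 across Themis and 1.12 over 13 across Cd247, a chain of the T cell receptor complex. It was 0.79 over 8 across Satb1, a chromatin organizer of T cells, none of them 2-fold apart. Among genes of lymphocyte survival it was 0.84 over 9 transcripts across Bcl2, which opposes cell death, and 0.65 over 3 across Il7r, the receptor chain of the survival cytokine IL-7. Across Foxo1 it was 0.16 over 2 transcripts that went in opposite directions. These were MSTRG.23786.1, at 11.1 against 5.95 FPKM and a log2 ratio of 0.88, and the low Gm38034, at 0.512 against 0.8 FPKM and -0.56. The transcript MSTRG.13000.1 in an intron of Il7r stood at 7.99 against 3.33 FPKM and Gm37053 across Bcl2 at 5.47 against 2.44 FPKM.

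At the B cell gene Ebf1 the assembled transcripts MSTRG.5423.1, at 4.46 FPKM in the CIA library, and MSTRG.5425.2, at 4.24 FPKM in the healthy library, were each listed at 0 in the other library. The opposite-strand transcript H3f3aos ENSMUST00000159740 was listed at 0 in the CIA library and stood at 2.41 FPKM in the healthy one.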
